A study of Mus musculus with 8 samples.

Results

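En1 and Des were followed in the tumour cells of N2N1G allografts. N2N1G is a murine line of small cell lung cancer, an aggressive neuroendocrine cancer with frequent brain metastases. They are 2 of the 22056 genes in the deposited tables and were picked by symbol, because earlier results on these data had shown their levels, their share of cells and their joint detection to differ between sites. Those measures are therefore given as a description, without a test. A tumour cell was a cell in which the summed UMIs (unique molecular identifiers, each a counted RNA molecule) of the reporter eGFP and of Mycl made up at least 0.2% of all UMIs. The rule found 34719 tumour cells among 36797 cells that passed the quality limits, and 282 of them lay just above the limit (0.20% to 0.25%), of which 8 held En1 and 5 held Des. Of 231 cells just below it (0.15% to 0.20%), 3 held En1 and 3 held Des.

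All groups carried the same cell line with no other treatment. Cultured cells had been injected directly into the brain (2 libraries) or under the skin of the flank (3 libraries), or reached the liver through the tail vein (3 libraries), and tumours were harvested 3 weeks later and healthy cells sorted by flow cytometry. Route and site therefore cannot be told apart for the liver. The labels name neither the strain or age of the hosts nor whether each library came from a separate mouse, so spreads and p-values measure the spread between libraries.

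En1 encodes a homeodomain transcription factor that acts mainly as a repressor through Groucho (Tle) proteins and binds DNA with Pbx partners. It patterns the midbrain-hindbrain boundary and the ventral side of the limb bud. Des encodes desmin, the intermediate filament protein of skeletal, cardiac and smooth muscle, which ties sarcomeres to each other and to the cell membrane and is also used as a marker of pericytes. Neither gene is a usual marker of neuroendocrine lung cancer.

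Both genes lie on the plus strand of chromosome 1, far apart from each other. In the GENCODE M21 annotation of assembly GRCm38, En1 (ENSMUSG00000058665) spans chr1:120602418-120607992 with 2 exons, and Des (ENSMUSG00000026208) spans chr1:75360329-75368579 with 9 exons in its principal transcript. The 250 bases before each RefSeq start (build GRCm38.p6, plus strand, chr1:120602237-120602486 for En1 and chr1:75360042-75360291 for Des) are shown because the 2 transcripts were found in the same cells. Capitals mark matches, on either strand, to 6 motifs searched: the E-boxes CAGCTG and CACGTG, the CCAAT core, the homeodomain core TAATTA, the GC box GGGCGG and the TATA box TATAAA.
En1: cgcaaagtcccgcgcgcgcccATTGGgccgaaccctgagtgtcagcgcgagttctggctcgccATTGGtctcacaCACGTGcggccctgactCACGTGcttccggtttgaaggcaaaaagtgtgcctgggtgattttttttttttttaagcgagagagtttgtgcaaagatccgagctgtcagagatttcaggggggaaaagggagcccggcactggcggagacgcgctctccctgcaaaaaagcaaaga
Des: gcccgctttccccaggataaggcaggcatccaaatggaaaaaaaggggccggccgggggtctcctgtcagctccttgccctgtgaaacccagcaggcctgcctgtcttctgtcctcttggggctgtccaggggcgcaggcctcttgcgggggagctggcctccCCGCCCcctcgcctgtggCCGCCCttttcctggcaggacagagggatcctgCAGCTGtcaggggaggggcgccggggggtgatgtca

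The En1 window held CACGTG at 2 places, and 0.429% of all 32851 RefSeq promoter windows of this length held it at 2 or more (6.02% at any). It also held the CCAAT core at 2 places, both on the reverse strand, and 10.1% of windows held it at 2 or more on either strand. The Des window held a single CAGCTG, present in 13% of windows, which lay 36 to 31 bases before the start, and 2 GC boxes, both on the reverse strand, where 16.7% of windows held 2 or more on either strand. No motif of the 6 occurred in both windows, and TAATTA and TATAAA occurred in neither. These matches describe the letters of the windows and say nothing about binding.

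En1 was highest in the brain allografts. Its level, in UMIs scaled to the summed tumour-cell UMIs of the library (CPM), was 44.8 for brain replicate 1 and 42.4 for replicate 2. The liver libraries held 1.86, 1.76 and 1.36 CPM, and the subcutaneous ones 14.5, 2.03 and 1.75. The brain libraries lay above all 6 others, and subcutaneous replicate 1 stood apart from the other 2 of its site. The exact 95% Poisson intervals, which cover counting error only, ran from 42.0 to 47.7 in brain replicate 1, from 13.4 to 15.7 in subcutaneous replicate 1 and from 1.04 to 1.74 in liver replicate 3. The mean of the brain libraries was 43.6 ± 1.71 CPM (SD, n = 2), against 1.66 ± 0.265 in liver (n = 3) and 6.11 ± 7.30 in subcutaneous tumours (n = 3). The brain mean was 26.3 times the liver mean and 7.14 times the subcutaneous mean, or 23.0 times without subcutaneous replicate 1. Liver and subcutaneous tumours did not differ beyond the spread of the subcutaneous libraries.

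Des followed the same order with a higher floor. Its level was 33.8 and 44.8 CPM in brain, 4.86, 5.81 and 3.28 in liver, and 14.3, 4.69 and 3.51 in the subcutaneous libraries. Brain was again above every other library, subcutaneous replicate 1 came next, and the remaining 5 libraries overlapped between sites. The means were 39.3 ± 7.75 (SD, n = 2), 4.65 ± 1.28 (n = 3) and 7.49 ± 5.90 CPM (n = 3). The brain mean was 8.45 times that of liver and 5.25 times that of subcutaneous tumours, or 9.59 times without subcutaneous replicate 1. In summed libraries, fewer cells of a type and less RNA per cell cannot be told apart, so the shares of cells were read next.

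**Figure D1:**
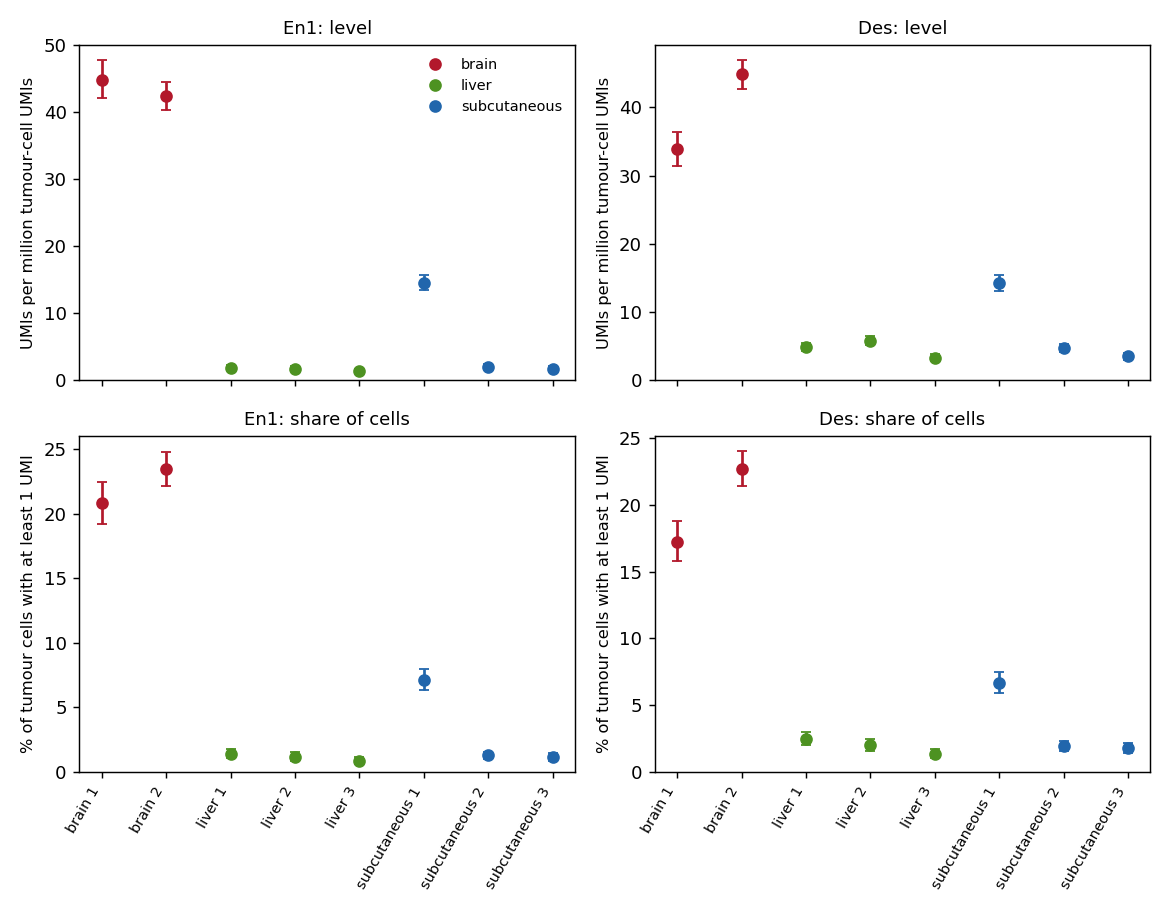
Levels (CPM of tumour-cell sums, upper row) and shares of tumour cells with at least 1 UMI (%, lower row) of En1 and Des in the 8 libraries; points are libraries and bars are exact 95% Poisson or binomial intervals. The 2 brain libraries lie above all others for both genes, and subcutaneous replicate 1 lies between them and the remaining 5.

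The sites also differed in how many cells held each transcript. En1 was detected in 503 of 2418 (20.8%) and 953 of 4060 (23.5%) brain tumour cells, in 1.36%, 1.17% and 0.805% of liver tumour cells, and in 7.11%, 1.26% and 1.13% of subcutaneous tumour cells. Des was detected in 17.2% and 22.7% of cells in brain, 2.43%, 1.98% and 1.33% in liver, and 6.67%, 1.91% and 1.77% under the skin. The brain shares stood above those of all other libraries for each gene. Tumour cells held a median of 7971.5 to 10542 UMIs per library, with the brain libraries the shallowest. When every cell was thinned to 3000 UMIs and shallower cells (48 to 180 per library) were left out, En1 remained in 11.4% and 11.9% of brain cells and Des in 8.71% and 11.9%. The thinned shares elsewhere were 0.507% to 0.740% (En1) and 0.947% to 1.28% (Des) in liver, and 0.524% to 3.44% (En1) and 1.06% to 3.69% (Des) under the skin.

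Within the cells that held it, each transcript differed less between sites. A cell needed at least 1 UMI to be counted here, which keeps this level from falling far at any site. Whether the level per cell differed between sites therefore cannot be read from it. The pooled level inside En1-positive cells was 190 and 172 CPM in brain, 176, 132 and 207 in liver, and 205, 161 and 198 in subcutaneous tumours. The sites overlapped fully. Inside Des-positive cells it was 188 and 196 CPM in brain, 215, 281 and 276 in liver, and 219, 245 and 239 under the skin. Here the 2 brain values were the lowest of the 8. A positive cell held few molecules: 47.3% to 70.4% of En1-positive cells and 32.5% to 56.8% of Des-positive cells had a single UMI, and the highest count in 1 cell was 11 for En1 and 13 for Des.

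As a background, both transcripts were read in cells outside the tumour rule, classed by at least 3 detected markers. Of 1290 myeloid cells, 3 (0.233%) held En1 and 3 held Des. All of these were in brain replicate 1, whose 834 myeloid cells had a median of 4232 UMIs and a share of 0.360% for each gene (exact binomial upper bound 1.05%), against a median of 7971.5 UMIs in its tumour cells. The liver shares of En1 in tumour cells (0.805% to 1.36%) lay around that bound, but it belongs to a library with 44.8 CPM of En1 in its tumour cells. It is therefore no background for liver. The 7, 50 and 11 myeloid cells of the liver libraries held no En1, with upper bounds of 41.0%, 7.11% and 28.5%, too wide to set such a background. Pericyte or smooth muscle cells, which are known to make desmin, held Des in 13 of 16 cells and En1 in 2. Fibroblast-class cells held En1 in 12 of 77 cells and Des in 3. The barcodes of 882 cells occurred in more than 1 library (of 37556 distinct barcodes). Only 2 of these pairs were En1-positive in both libraries and 3 Des-positive in both.

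The 2 transcripts were found in the same cells far more often than their separate shares would give. In brain, 264 and 539 cells held both, which is 3.04 and 2.49 times the product of the shares. In liver, 46, 44 and 28 cells held both, 33.8, 45.3 and 55.2 times the product. Under the skin, 170, 62 and 32 cells held both, 8.63, 41.0 and 33.4 times the product. The ratio cannot exceed the inverse of the larger share, which is a lower ceiling where the shares are high, so its order among libraries is not read as a difference between sites. Thinning to 3000 UMIs left the ratio at 2.60 to 3.83 in brain, 46.8 to 68.9 in liver and 8.11 to 46.3 under the skin.

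Read as a share of each gene, 52.5% and 56.6% of En1-positive cells in brain held Des, 73.7% to 89.8% in liver and 57.6% to 78.5% under the skin. Of Des-positive cells, 58.5% and 63.3% held En1 in brain, 44.4% to 53.0% in liver and 37.6% to 61.4% under the skin. In liver most En1-positive cells held Des, whereas about as many Des-positive cells lacked En1 as held it. Among cells without an En1 UMI, Des was found in 7.99% and 12.3% in brain, 0.748% to 1.33% in liver and 0.936% to 2.78% under the skin. Read by the En1 count, Des was present in 50.4%, 51.4% and 57.9% of the cells of brain replicate 1 with 1, 2 and 3 or more En1 UMIs, and in 55.3%, 59.1% and 56.7% of those of replicate 2. In liver it was present in 64% to 85.2% of cells with 1 En1 UMI and in 83.3% or more of the 6 to 9 cells per library with 3 or more. Read by the Des count, En1 was present in 60.8%, 65.7% and 67.9% of the cells of brain replicate 1 and in 53.6%, 60.1% and 68.2% of those of replicate 2. In liver it was present in 23.1% to 33.3% of cells with 1 Des UMI and in 60.5% to 70.8% of those with 3 or more. By the Des count the share was thus higher at 3 or more UMIs than at 1 in the libraries of both sites.

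**Figure D2:**
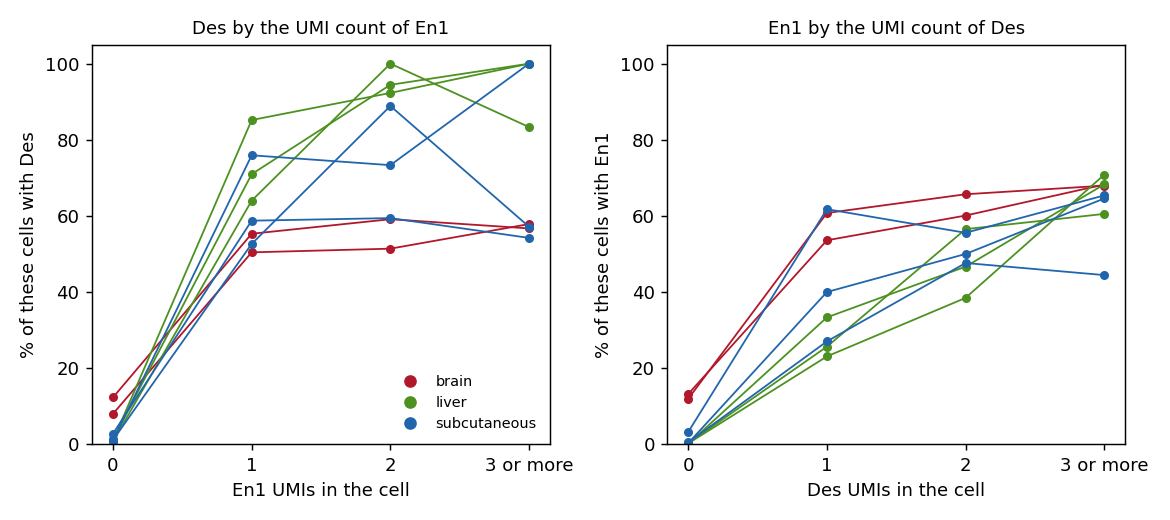
Share of tumour cells (%) that held Des by the number of En1 UMIs in the cell (left) and that held En1 by the number of Des UMIs (right); each line is a library, coloured by site. Every library steps up between 0 and 1 UMI, and cells with 0 UMIs hold the other transcript more often in the brain libraries.

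To ask what else these cells expressed, UMIs of En1-positive cells were summed in each of the 8 libraries and compared with sums of En1-negative tumour cells of the same library, drawn to the same depth. The same was done for Des. En1 and Des were taken out of the results of these fits before the p-values were adjusted. The compared states are still set by detection of En1 or Des, a measure that chose the genes. The fits therefore describe these cells and are not independent of that choice. edgeR's quasi-likelihood test with the library as a block called 1948 genes higher and 1861 lower in En1-positive cells, 40.6% of the 9371 tested, at a Benjamini-Hochberg adjusted p below 0.05. For Des it called 2035 higher (19.8%) and 1931 lower (18.8%), together 38.5% of 10293. With so large a background a call by itself says little, and the sizes below matter more: 650 of the En1 calls and 709 of the Des calls reached a 2-fold difference. The comparisons share cells and libraries, and 1590 genes were called higher in both, which is 81.6% of the En1 calls and 86.2% of the Des calls among genes tested in both. The lower calls shared 1521 genes, 81.7% and 83.8%.

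Posterior Hoxd genes were among those that rose most in En1-positive cells, with Hoxd10 and Hoxd11 in the first 10. These homeobox genes sit in 1 cluster and pattern the limbs and the hind part of the body axis. All 4 tested members rose (of 7 listed, against 20.8% of all genes): Hoxd8 by a log2 fold change of 3.12, Hoxd9 by 3.27, Hoxd10 by 3.96 and Hoxd11 by 3.81. Hoxd12, Hoxd13 and Evx2 were too low to test. Hoxd10 stood at 48.5 and 49.6 CPM in En1-positive cells of brain, 78.0, 62.0 and 63.7 in liver, and 63.5, 45.3 and 70.3 under the skin. Its En1-negative counterparts held 6.43, 6.48, 2.83, 0.591, 0, 2.36, 0 and 1.44 CPM in the same order. All of them lay below the lowest positive sum (log2 fold change 3.96 ± 0.41 SE, edgeR adjusted p = 0.000123). Hoxd11 was 68.2 to 121 CPM in En1-positive and 0 to 14.6 in En1-negative sums. In Des-positive cells the 4 genes rose by 3.33, 3.03, 3.43 and 3.72.

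The other genes with the largest rise in En1-positive cells came from unlike families. Tph1, the rate-limiting enzyme of serotonin synthesis outside the brain's neurons, stood at 32.3 to 305 CPM against 1.18 to 9.16 (log2 fold change 3.94). Edn3, the ligand endothelin 3 of neural crest development, was at 33.9 to 188 against 0 to 17.7 (3.57). Fst, the activin-binding protein follistatin, was at 43.6 to 137 against 0 to 13.8 (3.51). Mfap2, a microfibril component (3.79), Tppp3, a tubulin-binding protein (3.69), Tm4sf1, a membrane protein of the tetraspanin-like family (3.65), Pou2af1, a coactivator of octamer-binding factors (3.38), and Foxd1, a forkhead factor of kidney stroma and forebrain (3.36), completed the first 10. A rise in each of the 8 libraries was required for a gene to be named here, so it is not a result.

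In Des-positive cells 6 of the 10 leading genes were the same, namely Mfap2 (4.51), Edn3 (3.90), Tph1 (3.84), Tppp3 (3.81), Tm4sf1 (3.78) and Fst (3.73). The other 4 were Cer1, a secreted antagonist of Nodal and BMP (4.19), Wnt4, a Wnt ligand (3.92), Rgs16, a regulator of G protein signalling (3.89), and Ttr, the thyroxine carrier transthyretin (3.86). Ttr was uneven across libraries. Its Des-positive sums held 9.65 and 245 CPM in brain, 71.9, 54.2 and 122 in liver, and 3.63, 2.40 and 5.08 under the skin, against 0.636 to 8.15 in Des-negative sums. Its adjusted p was 0.00593 by edgeR's quasi-likelihood test, the weakest of these 10.

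The largest falls were also in genes of unlike families. Gpc3, a heparan sulfate proteoglycan of the cell surface, dropped to 0 to 6.53 CPM in En1-positive cells from 6.30 to 31.7 in their negative counterparts (log2 fold change -2.33 ± 0.20 SE, edgeR adjusted p = 3.51e-09). Tfap2c, an AP-2 factor of epithelia and placenta (-2.31), the protease Prss23 (-2.10), the centrosomal protein Tacc2 (-2.00), the growth factor binding protein Igfbp2 (-1.95), Tspan1 (-1.93), Tmc4 (-1.93), Tmem47 (-1.92), Mpped2 (-1.92) and Hoxb2 (-1.92) made up the rest. Igfbp2 was the most abundant of them, at 100 to 618 against 475 to 2127 CPM. In Des-positive cells Gpc3 (-1.98), Tmem47 (-1.58) and Hoxb2 (-1.60) were again among the first 10, with the AP-2 factor Tfap2a (-1.82), the epithelial repressor Ovol1 (-1.77), Shox2 (-1.72), the germ cell protein Tex14 (-1.63) and 3 further Hoxb genes. Hoxb4, Hoxb6 and Hoxb7 fell by 1.71, 1.62 and 1.68 on the log2 scale, in the same cells in which Hoxd8 to Hoxd11 rose.

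**Figure D3:**
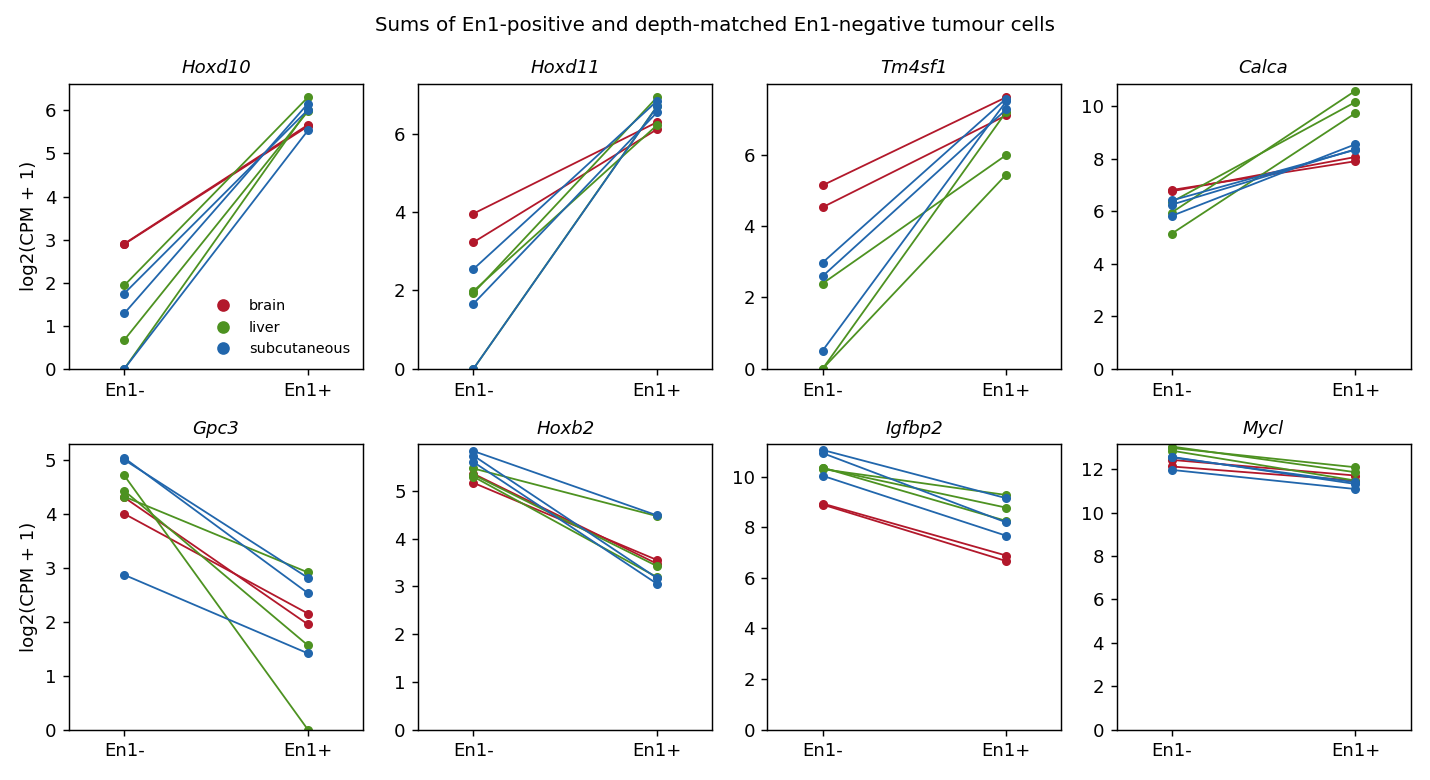
Levels on the log2(CPM + 1) scale of 8 genes in sums of En1-negative and En1-positive tumour cells; each line joins the 2 sums of a library, coloured by site. Hoxd10, Hoxd11, Tm4sf1 and Calca rise and Gpc3, Hoxb2, Igfbp2 and Mycl fall in every library, which the naming rule required of all but Calca and Mycl. The Hoxd and Tm4sf1 levels of En1-negative cells are highest in the 2 brain libraries.

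The genes whose counts followed En1 most closely from cell to cell were, after Des, Hoxd11, Tm4sf1, Ybx1, Hoxd10, Edn3, Gpx7 and Fst, ranked by the mean over 8 libraries of Pearson's r of depth-scaled log counts among 11637 genes. Des stood first, with r = 0.42 and 0.41 in brain, 0.61, 0.68 and 0.64 in liver, and 0.46, 0.61 and 0.43 under the skin (mean 0.53). Its highest value was in liver and its lowest in brain, and the liver and subcutaneous values overlapped. The closest genes to Des were Hoxd11 (mean r = 0.54), En1 (0.53), Tm4sf1 (0.53), Edn3, Mfap2, Ybx1, Fst and Rgs16. Cells of a library share depth and preparation, so these values are a description. Ybx1, a cold-shock domain protein that binds RNA and the CCAAT core, differed from the rest in being detected in 99.8% of tumour cells. It stood at 11734 to 19170 CPM in En1-positive and 2956 to 4644 CPM in En1-negative sums (log2 fold change 2.05 ± 0.15 SE, edgeR adjusted p = 1.98e-05), with no overlap.

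Partners of En1 were called about as often as other genes. Of 15 listed engrailed cofactors and Groucho corepressors, 13 were tested in En1-positive cells, 3 rose and 2 fell, near the 20.8% and 19.9% of all genes (median log2 fold change 0.06, against 0.00 over all genes tested). Among those that rose were the Groucho gene Tle1, by 0.87, and Meis3, by 0.81, and Tle6 and Meis2 fell by 0.74 and 0.46. Of 15 midbrain-hindbrain boundary genes only 2 were abundant enough to test, and the FGF antagonist Spry2 rose (1.02) while Spry1 was at -0.27. In the Des comparison, where 5 were tested, En2, the paralogue of En1, rose by 1.19 from 2.21 to 5.76 CPM on average. En2 was near the count filter and met it mainly through its Des-positive sums. Wnt1, Fgf8, Pax2, Pax5 and Otx2, the partners of En1 in that tissue, were not tested for low counts.

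In the list of limb and skin patterning genes, 6 of 11 tested rose in En1-positive cells and 1 fell, against 20.8% and 19.9% of all genes (median 0.48). Msx1, a homeobox target of BMP signals, rose by 2.40, the BMP mediators Smad9 and Smad1 by 2.11 and 0.76, the BMP response gene Id3 by 1.51, the receptor Bmpr1a by 0.73 and Id2 by 0.48. Smad9 was near the count filter and met it mainly through its En1-positive sums (11.2 against 2.94 CPM in brain, 11.9 against 2.68 elsewhere). The ligand Bmp7 fell, from 100.5 to 37.2 CPM on average (-1.64 ± 0.11 SE, edgeR adjusted p = 1.18e-09). Id1 was at -0.20 and Bmp2 at 0.35, neither past the threshold. The Des comparison gave 5 higher and 1 lower of 11, against 19.8% and 18.8% of all genes, with Msx1 at 2.43 and Bmp7 at -1.45.

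Skeletal and cardiac muscle genes did not rise with desmin. Smooth muscle markers are given below with those of other cell types. Of 30 skeletal and cardiac muscle genes, 8 were tested in Des-positive cells, none rose (0 of 8, against 19.8% of all genes) and 4 fell (against 18.8%), among them Mef2c (-0.77), Acta1 (-1.11) and Six4, from 14.0 to 6.86 CPM. Mef2a, Mef2d, Myl4 and Mylpf were at log2 fold changes of 0.06, 0.32, 0.34 and -0.56, none past the threshold of edgeR's test. In En1-positive cells 5 of 7 fell and none rose, against 19.9% and 20.8% of all genes. The muscle determination genes Myod1, Myog, Myf5 and Myf6 and the sarcomere genes Ttn and Ckm were too low to test in either fit.

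Among intermediate filament genes, some neuronal members and 1 lamin rose and 2 keratins fell. In Des-positive cells 4 of 11 rose and 2 fell, the latter near the background (19.8% of all genes rose and 18.8% fell). Those that rose were Prph, the peripherin of peripheral neurons (from 88.6 to 239 CPM), the neurofilament genes Nefm (1.31) and Nefh (0.37), and the lamin gene Lmna (0.44). The neuronal genes Ina and Nefl and the lamin genes Lmnb1 and Lmnb2 were not among them. Krt8 fell (-1.28, from 372 to 166 CPM) and Krt7 fell slightly (-0.17), while Krt18 was at -0.19 and did not pass. En1-positive cells gave the same count, 4 higher and 2 lower of 11. There Nefl rose and Ina was near level, at 213 against 215 CPM in brain and 247 against 257 elsewhere. Of 22 desmin partners and turnover genes, 8 of 17 rose in Des-positive cells and 6 fell, against the same 19.8% and 18.8%. Bag3, a chaperone partner that handles damaged filament proteins (1.96), Nebl, a desmin-binding relative of nebulin (1.79), and the protease gene Capn1 (2.45, from 0.615 to 4.92 CPM) rose most. Capn1 was near the count filter and met it through its Des-positive sums, so only a rise could be called for it. The desmosomal genes Dsp (-1.34) and Pkp2 (-0.82) and the small heat shock protein gene Cryab (-1.14), which stabilises desmin in muscle, fell.

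Neuroendocrine markers moved in both directions. Of 17 listed markers 14 were tested in En1-positive cells, 6 rose and 5 fell, against 20.8% and 19.9% of all genes (median 0.15). Calca, the precursor of calcitonin gene-related peptide, rose by 2.58, the granule genes Resp18 and Ptprn by 2.59 and 2.49, the Notch ligand gene Dll3 by 1.04, and Ddc and Chga by 0.96 and 0.41. Among those that fell were the transcription factor gene Insm1, by 0.47, and Uchl1 and Syt1, by 0.68 and 0.83. Calca stood at 237 and 266 CPM in En1-positive cells of brain, 1133, 845 and 1526 in liver, and 322, 326 and 372 under the skin, against 34.3 to 111 in negative sums. Its highest positive values were all from liver. The 2 transcripts of the tumour rule moved oppositely, with eGFP 0.80 higher and Mycl 0.96 lower on the log2 scale.

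**Figure D4:**
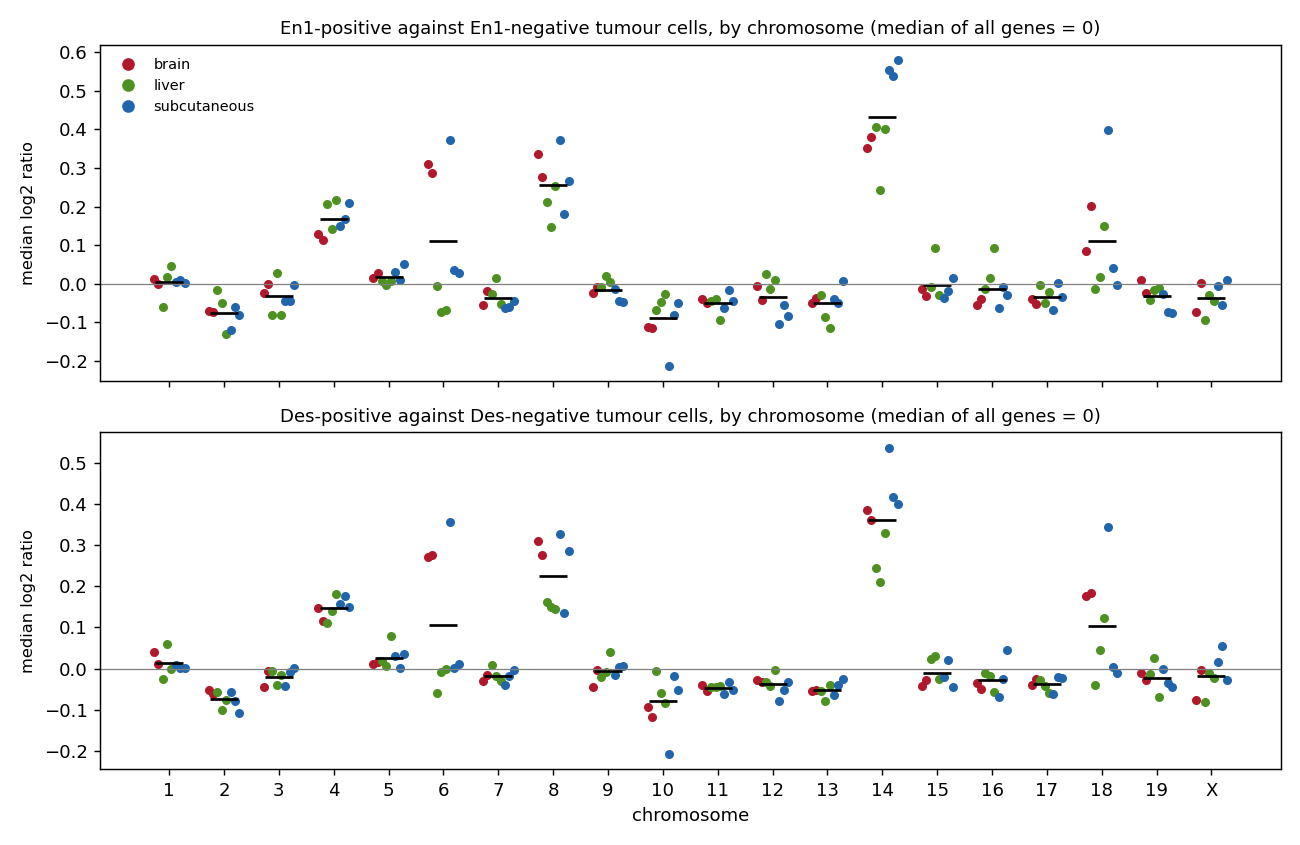
Median log2 ratio, on the log2(CPM + 1) scale, of genes on each chromosome in En1-positive against En1-negative (top) and Des-positive against Des-negative (bottom) tumour cells, relative to the median of all genes of the library; points are the 8 libraries and black bars their means. Chromosomes 4, 8 and 14 lie above 0 in all 8 libraries, and chromosome 6 does so clearly in 3.

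The calls were not spread evenly over the genome, a pattern that was looked for after these data had been seen. On chromosome 14, 61.5% of 288 tested genes were higher in En1-positive cells and 8.68% lower, and on chromosome 8 43.6% were higher, against 20.8% higher and 19.9% lower over all genes. For each library the median log2 ratio of a chromosome's genes was taken relative to the median of all genes above 50 CPM. For chromosome 14 it was 0.35 and 0.38 in brain, 0.41, 0.24 and 0.40 in liver, and 0.55, 0.54 and 0.58 under the skin (mean 0.43 ± 0.12 SD, n = 8, higher in 8 of 8, exact two-sided sign-flip permutation p = 0.00781, adjusted p = 0.026 over 20 chromosomes). The smallest p that 8 libraries allow is 0.00781. Chromosome 8 (mean 0.25) and chromosome 4 (mean 0.17) were also above 0 in all 8 libraries, each with the same exact permutation p. Chromosomes 2, 10 and 11 had small negative means (-0.07, -0.09 and -0.05) and lay below 0 in all 8 libraries, with the same exact permutation p. Chromosomes 1 and 15 had means of 0.004 and -0.004. Small means also passed the test: chromosome 5 had a mean of 0.018 and lay above 0 in 7 of 8 libraries (exact permutation adjusted p = 0.031). Chromosomes 7, 13, 17 and 19 had means of -0.04, -0.05, -0.03 and -0.03 and passed as well (exact permutation adjusted p = 0.031 to 0.043). A pass is therefore not particular to the chromosomes with large means. For Des, chromosome 5 lay above 0 in 8 of 8 libraries (mean 0.025). Values of the chromosomes depend on each other through the common median, and its part in the negative means was not tested.

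Chromosome 4 was not uniform. In its window from 120 to 130 Mb, 73 of 86 tested genes were higher and 6 lower in En1-positive cells (median log2 fold change 0.70). From 150 to 160 Mb none of 57 was higher and 51 were lower (median -0.76). Ybx1 lies at chr4:119277981-119294604, beside the first of these windows. Mycl, at chr4:122995652-123002485, lies inside it and yet fell. The Des comparison gave 75 higher of 89 and 57 lower of 65 in the same windows.

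Chromosome 6 split the libraries. Its median was 0.31, 0.29 and 0.37 in brain replicates 1 and 2 and subcutaneous replicate 1, and between -0.07 and 0.04 in the other 5. The first 3 are the libraries with the most En1-positive cells. Des gave 0.27, 0.28 and 0.36 there and -0.06 to 0.01 elsewhere. The exact permutation test over all 8 libraries gave p = 0.203 (mean 0.11 ± 0.18 SD, n = 8).

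Genes next to En1 and Des on chromosome 1 were read from the nearest 10 tested on each side. Around En1, 8 of 20 rose in En1-positive cells and none fell (against 20.8% and 19.9% of all genes), the largest being Inhbb, an activin subunit whose start lies 1186953 bases before that of En1 (1.75), and Dpp10 (1.13). The nearest genes tested, 3110009E18Rik and Insig2, were at -0.22 and 0.43, of which Insig2 passed. Around Des, 5 of 20 rose in Des-positive cells and 3 fell, near the 19.8% and 18.8% of all genes. Resp18 and Ptprn, 88130 and 113302 bases before the start of Des, rose by 2.65 and 2.62. Between them and Des lies Dnpep (0.09), and on the other side Speg, a muscle kinase gene 14968 bases from the start of Des, was at 0.10. Neither passed the threshold.

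The brain differed from the other sites in how far En1-positive and En1-negative cells were apart. The interaction in edgeR's test (brain against the other sites) called 121 of 9371 genes, 1.29%. Of these, 107 (1.14%) had a lower positive-minus-negative difference in brain and 14 (0.149%) a higher one. All 4 Hoxd genes were among them. Averaged over libraries, Hoxd9 was at 63.9 CPM in positive and 13.9 in negative cells of brain, and at 55.3 and 1.42 elsewhere (interaction -2.74 ± 0.34 SE on the log2 scale, edgeR adjusted p = 1.24e-05). Foxd1 was at 75.8 and 14.6 in brain and at 47.8 and 0.898 elsewhere. For these 2 genes the mean of positive cells was not lower in brain, and that of negative cells was higher. Mfap2, by contrast, was lower in positive cells of brain (35.6 against 124 CPM) and higher in negative ones (8.79 against 1.66). Many positive cells held a single En1 UMI, and the share of cells with En1 was highest in brain. The part of cells with undetected En1 in the negative sums was not tested. The count was 38 without brain replicate 1, 33 without brain replicate 2 and 555 without subcutaneous replicate 1.

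Across sites, the 4 Hoxd genes followed En1 and Des. Summed over all tumour cells, Hoxd9 was at 23.2 and 23.2 CPM in brain, 1.53, 1.09 and 0.907 in liver, and 6.80, 1.76 and 2.00 under the skin. All 4 were called higher in brain than in liver (against 13.2% of 13931 genes higher and 8.56% lower), by 3.65 to 4.31, and 2 of 4 were called higher than under the skin (against 8.94% higher and 6.13% lower), Hoxd9 by 2.75 and Hoxd10 by 2.56. Prph rose (1.65 and 1.22) and Krt8 fell (-1.15 and -0.89) in brain against liver and against the subcutaneous site. These contrasts share the brain libraries. Without subcutaneous replicate 1 they called 4557 and 4754 genes, and without brain replicate 1 1112 and 383. None of the 4 was called between liver and subcutaneous tumours, where 0.933% of genes were higher and 1.9% lower in liver. In the brain sums 8 of 9 glial markers and 7 of 10 myeloid markers were also called higher than in liver, and their part in these differences was not tested.

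Cells with neither transcript were then compared alone: 4487 of 6478 tumour cells in brain (69.3%), 12752 of 13023 in liver (97.9%) and 14572 of 15218 under the skin (95.8%). Brain against liver then called 1457 genes in place of 3032, and brain against subcutaneous 984 in place of 2099, with fewer brain cells in each sum. Cells without a UMI can still make either transcript: 47.3% and 56.3% of En1-positive cells in the brain libraries held a single UMI. Such undetected cells may be more frequent in the brain sums, and their part in the values below was not tested. Hoxd9 still differed by 3.64 from liver and 2.58 from the subcutaneous site, and Prph by 1.32 and 1.03. Ptprn, which had been higher in brain by 1.18 and 0.98, was at 0.04 and -0.01. Resp18, its neighbour, went from 2.10 and 1.76 to 1.00 and 0.91, both past the threshold.

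Cells that held only 1 of the 2 transcripts differed in G2/M genes. Sums of En1-only and Des-only cells could be made in 4 libraries (brain replicates 1 and 2, subcutaneous replicates 1 and 3), where each held at least 20 cells. edgeR's quasi-likelihood test called 204 genes higher and 87 lower in En1-only cells (2.29% and 0.977% of 8901). All 20 listed G2/M genes, which are transcribed as cells prepare to divide, were higher in En1-only cells, with a median log2 difference of 1.15. Top2a, the topoisomerase of replicating and dividing cells, held 310, 369, 342 and 194 CPM in En1-only and 118, 187, 122 and 123 in Des-only cells, with no overlap (log2 1.18 ± 0.09 SE, adjusted p = 2.91e-10).

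Cdca2 (1.79), Cdc25c (1.60), Bub1 (1.45), Kif23 (1.44) and Ankle1 (1.41), of which the first 4 act in mitosis, had the largest differences. On the other side Speer4c (-0.95), Fxyd5 (-0.81), Mfap2 (-0.75), Aldoc (-0.74) and Suclg2 (-0.72) were lower in En1-only cells. Hoxd10 was higher (0.60) and Hoxd8, Hoxd9 and Hoxd11 were at -0.20, 0.22 and 0.13, none of them past the threshold. En1-only cells were deeper in brain (median 8637 against 7529 UMIs in replicate 1 and 8530.5 against 7441.5 in replicate 2). At equal depth 17 of the 20 G2/M genes were still called, with a median of 0.97, and 198 genes in all. In this comparison 5 of 6 tested myeloid markers were also higher in En1-only cells (C1qa at 97.2 and 27.8 against 31.7 and 18.6 CPM in brain). Without tumour cells that held 3 or more myeloid markers, all 20 G2/M genes were still called.

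G2/M genes were also scored per cell, in positive against negative cells of each gene. A cell counted as G2/M-high if it held at least 4 UMIs over the 20 genes after thinning to 3000 UMIs. Among Des-positive cells the share was 20.8% and 24.0% in brain, 21.4%, 24.4% and 14.3% in liver, and 24.5%, 24.2% and 17.6% under the skin. Among depth-matched Des-negative cells it was 29.7% to 40.7%, above the Des-positive share in each library. The difference was -12.9 percentage points (SD 5.93, n = 8, lower in 8 of 8, exact two-sided sign-flip permutation p = 0.00781). In the sums of Des-positive cells 4 of the 20 genes fell (Ccna2, Aurkb, Tpx2 and Birc5) and none rose. A count of 4 is near the 18.8% of all genes that were lower.

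For En1 the 2 readings differed. The share of G2/M-high cells was 30.4% and 33.9% in brain, 20.8% to 28.9% in liver and 25.3% to 35.6% under the skin, against 30.7% to 36.1% in En1-negative cells. The difference of -5.04 points (SD 5.57, n = 8, lower in 6 of 8) gave an exact permutation p of 0.0469, and it was 0.484 points with p = 0.766 in the same exact test when at least 8 UMIs were required. In the sums, 13 of 20 G2/M genes were higher in En1-positive cells and Tpx2 was lower (against 20.8% and 19.9% of all genes), with a median of 0.29, so list and share had opposite signs. The count fell to 8 with DESeq2 or with another random draw of negative cells, to 3 without the 2 brain libraries and to 7 without subcutaneous replicate 1. The En1 difference lay above the Des difference in all 8 libraries, by 7.86 points (SD 5.37, n = 8, exact two-sided sign-flip permutation p = 0.00781, the smallest possible).

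**Figure D5:**
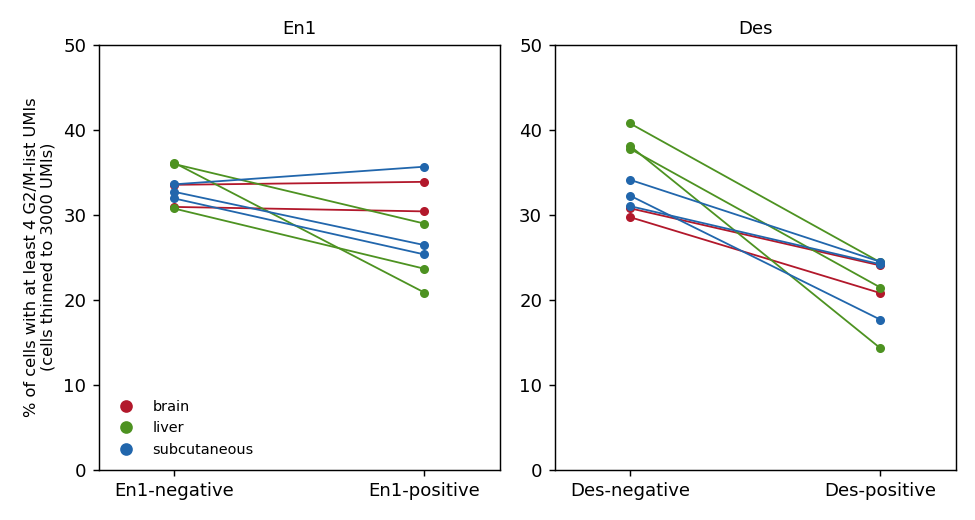
Share of tumour cells (%) with at least 4 UMIs over 20 G2/M genes after thinning to 3000 UMIs, in negative and positive cells for En1 (left) and Des (right); each line is a library, coloured by site. All 8 Des lines fall, whereas the En1 lines of brain and of subcutaneous replicate 1 are nearly level.

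Markers of other cell types were read in the same sums. Summed pericyte and smooth muscle markers (12 genes) were higher in Des-positive than Des-negative sums in 8 of 8 libraries, at 4.48 to 194 against 0.282 to 4.07 CPM, and the highest values were in liver replicates 2 and 3 and subcutaneous replicate 1. In those libraries Acta2 was at 72.9, 80.0 and 10.2 CPM in Des-positive cells, and at 0 to 0.800 in the other 5. Only 5 tumour cells held 3 or more of these markers, with 11 Des UMIs among them, and without them the ratio of Des in brain to the mean of the other sites was 6.52 in place of 6.48. Myeloid markers were at 0 to 481 CPM in En1-positive and 0.431 to 549 in En1-negative sums, with the highest values in brain replicate 1, where 18.3% of En1-positive and 22.9% of En1-negative tumour cells held 3 or more of them. Without such cells the fits called 3869 genes for En1 and 3978 for Des. Fibroblast markers (10 genes) were higher in Des-positive sums in 8 of 8 libraries, at 20.6 to 241 against 1.34 to 38.3 CPM. En1-positive sums moved the same way: fibroblast markers were higher in 7 of 8 libraries (median 26.7 against 5.81 CPM), as were pericyte and smooth muscle markers (6.58 against 1.64). Only 1 fibroblast marker was abundant enough to test in the En1 fit, and it was called higher (log2 fold change 2.91, against 20.8% of all genes higher). In the Des fit 2 were tested and 1 was called higher, against 19.8% of all genes. The 1 pericyte and smooth muscle marker tested in the Des fit was also called higher, by 3.18. In Des-only cells of brain, Pdgfra was at 31.7 and 21.5 CPM and the other markers of that list at 0 to 5.14. Hepatocyte markers, which include Ttr, were at 226 against 9.93 CPM in En1-positive and En1-negative sums of brain replicate 2. In Des-positive sums of that library the hepatocyte list was at 242 CPM, and Ttr alone at 245 when scaled as in edgeR's fit. The part of pericyte, fibroblast and hepatocyte RNA in the differences above was not tested.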

How the data were processed

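Single-cell 3' RNA libraries of 8 allografts were analysed. The authors deposited UMI counts per gene and cell, per the file headers in the format of Cell Ranger 3.0.0; the submitters' processing notes name Cell Ranger, STAR and mm10. Kept cells had at least 500 genes and at most 10% mitochondrial UMIs, and no doublets were removed. Deposited totals were 27140735 to 63049542 UMIs per library, so counting limits the lowest levels.

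Counts of tumour cells were summed per library, or per library and state with at least 20 cells each, with up to 3 negatives per positive drawn within 20 depth bins. edgeR 4.0.16 (R 4.3.3) used TMM factors, filterByExpr and robust quasi-likelihood F tests with Benjamini-Hochberg adjustment at 0.05; the site model held all 8 libraries. An SE is the log2 fold change divided by the root of F. DESeq2 1.42.0 was an alternative. Positions came from GENCODE M21 for 22029 of 22056 genes, and promoters from RefSeq.

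The genes named were the 10 in each direction with the largest change among those called, at 10 CPM or more and in the same direction in every library (5 for cells with 1 transcript), the 8 most alike, neighbours and members of lists. Some genes that this rule names are not reported here. Members, lists and tests were chosen with earlier results of these data known. The scripts were tested on simulated data. The chromosome medians and the fits at equal depth, without myeloid-marked cells or without brain libraries were added after seeing the data.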

Additional observations from a re-analysis of the deposited data

Results flagged for a closer look

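The En1-positive effect differed between brain and the other sites for 15 of the genes named by the rule or held in the lists, by the interaction term of edgeR's quasi-likelihood test over all genes. Over all 9371 genes tested, 121 (1.29%) were called. The named genes had been picked for the largest En1-positive effects, so the count of 15 is not read as a result about them. The difference of log2 fold changes (brain minus other sites) was -3.47 for Mfap2, -3.17 for Pou2af1, -3.03 for Tph1, -2.74 for Hoxd9, -2.73 for Foxd1, -2.67 for Tm4sf1, -2.60 for Tppp3, -2.47 for Hoxd11, -2.35 for Hoxd10, -2.18 for Gpx7, -2.01 for Bmp2 and -1.79 for Hoxd8. Resp18 and Ptprn had smaller differences of -1.07 and -1.06. Id2 went the other way, at 0.79, with 392 against 192 CPM in brain and 499 against 443 elsewhere. Of the 15 genes, 10 lost the call under at least 1 alternative. Bmp2 had lower values in positive than in negative cells of brain (6.60 against 10.2 CPM) and higher ones elsewhere (16.2 against 4.67).

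Both genes were also seen in cells outside the tumour rule. Cells with at least 3 pericyte or smooth muscle markers held Des in 81.2% (13 of 16 cells). Cells with at least 3 fibroblast markers held En1 in 15.6% (12 of 77) and Des in 3.90%. All 12 came from subcutaneous replicate 1, where 70 of the 77 fibroblast-class cells were found. There 17.1% of the fibroblast-class cells held En1, at 50.3 CPM and a median of 3664.5 UMIs per cell. Tumour cells of that library held En1 in 7.11%, at 14.5 CPM and a median of 9392.5 UMIs. The source of En1 in the fibroblast-class cells was not tested. The other fibroblast-class cells were 7 cells of brain, with no En1.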

How the results depend on the processing

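Of the alternatives to the main values and counts, 127 kept their direction and side of the threshold, 44 moved, 7 lost the threshold and 1 reversed. For single genes 4068 held, 507 lost their call and 3 reversed: Tpx2 in En1-positive cells with at least 2 UMIs (0.00143), and Smad9 against liver (-0.13) and Ptprn against subcutaneous tumours (-0.0106) in cells with neither transcript. The cause of these changes was not tested. The G2/M difference for En1 was -2.66 points at 2000 UMIs per cell (exact permutation p = 0.172) and 0.484 with at least 8 UMIs, and -6.06 to -3.58 with 1 library left out, where 6 of 8 fits missed the threshold; that for Des stayed at -13.8 to -11.3. The share of cells, brain minus the other sites, was 19.999 points for En1 and 17.3 for Des unthinned, 7.17 and 6.55 at 2000 UMIs, 16.5 and 13.7 at 5000, and for Des 7.16 to 10.3 with 1 library left out. The level ratio of brain to the mean of the other sites (11.2 and 6.48) ran from 8.77 to 24.6 and from 5.57 to 8.99. Leaving out 1 library gave 1112 to 4557 genes for brain against liver, 383 to 4754 for brain against subcutaneous, 33 to 1024 for liver against subcutaneous, 3038 to 3909 for En1, 3352 to 3886 for Des, 174 to 262 for cells with 1 transcript and 33 to 555 for the interaction. Cells with neither transcript gave 1457 and 984 genes for brain against liver and subcutaneous, and a fit of only those 2 sites gave 728 for the latter. DESeq2 gave 1055 genes for liver against subcutaneous, 136 for cells with 1 transcript and 65 for the interaction, which had 312 with no filter. Library totals in place of TMM gave 713 for liver against subcutaneous, split 112 higher and 601 lower in place of 130 and 264. The En1 fit without the 2 brain libraries gave 2519. With the replicate block, brain against liver gave 2482 genes, brain against subcutaneous 1378 and liver against subcutaneous 229, but same-numbered libraries deviated with correlations of -0.235 to 0.241, so the numbers do not pair them. En1 cells with at least 2 UMIs were too few in liver replicate 3 and subcutaneous replicate 3.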
